A study of Rattus norvegicus with 4 samples.

Results

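Cholesterol synthesis enzymes were measured here by 8 probes for 4 genes, among the 1936 probes of a rat cDNA array, on which 958 genes have a probe with a single symbol. They were the probes whose platform annotation gives exactly 1 symbol, being Acat2 (1 probe), Mvk (1), Cyp51 (4) or Dhcr7 (2). RNA came from the livers of male Sprague-Dawley rats of 250 to 300 g, taken 1 h after the common bile duct was tied (ligated group) or exposed only (sham group). Rats of both groups were fed chow freely and operated on under ether, and they were killed in groups of 3, whose liver RNA was mixed. Each of the 4 arrays set ligated against sham RNA, with the ligated sample in Cy5 on arrays 1 and 3 and in Cy3 on arrays 2 and 4. All 4 arrays form 1 group, and no label says whether they shared extracts, so the p-values given here reflect how far arrays differ, which may be technical. Age is not given, and no animal was measured by itself.

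Liver makes cholesterol from acetyl-CoA through mevalonate, squalene and lanosterol. The enzymes of this route are known for being switched on together when cell sterols fall, through the transcription factor SREBP-2, and the liver loses cholesterol mainly by making bile acids and by secreting it into bile, which a tied duct blocks. Acat2 is the cytosolic acetyl-CoA acetyltransferase, which joins acetyl-CoA units at the head of the route, and not the cholesterol esterifying enzyme often called by the same letters. Mvk, mevalonate kinase, phosphorylates mevalonate. Cyp51 is the cytochrome P450 that demethylates lanosterol, and Dhcr7 is the reductase that makes cholesterol from its dehydro precursor.

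The deposited value of a probe is a log ratio of the 2 channels, and the base of the log is not given in the sources used here. Values were read as ligated over sham. This reading is likely because the labels list sham as the first and ligated as the second channel of each array, but no label states it. If the ratio ran the other way, all signs of operation effects below would be opposite. The values carried a large dye effect: the deposited array medians ran from -0.88 to -0.73 with the ligated sample in Cy5 and from 0.75 to 0.87 with it in Cy3. Each array was therefore centred on its median, and limma was fitted over all probes with operation and dye as terms. Errors are standard errors (SE) of that fit over 4 arrays, and p-values were adjusted over all 1936 probes by the method of Benjamini and Hochberg. In bulk liver RNA, fewer cells of a type and less RNA per cell cannot be told apart.

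None of the 8 probes had a limma adjusted p under 0.05, against 5.73% of all probes called (111 of 1936, of which 18 were higher and 93 lower). None of the 8 had an unadjusted p under 0.05, against 14.3% of all probes. The estimates of the operation effect ran from -0.17 to 0.13, with 5 below and 3 above 0. Their median was -0.038, beside a median of -0.020 over all probes, whose quartiles were -0.092 and 0.033. The smallest estimate that was called for any probe was 0.26 in size, and the largest of the 8 was 0.17. Every 95% interval included 0, and together the intervals reached from -0.33 to 0.30. If the base is 2, these bounds are ratios of 0.793 and 1.23; if it is e, 0.716 and 1.35; if it is 10, 0.463 and 2.0. A p above the threshold does not show that the enzymes were unchanged, and the intervals leave room for changes up to these bounds. Of the 93 probes called lower, 60 lie in block 3 and 11 in block 4 of 16 equal blocks of consecutive probe numbers. Block 3 holds 0 of the 8 probes and block 4 holds 1. With both blocks left out and the fit repeated, 135 of 1694 probes were called, and 0 of the 7 enzyme probes left. In that fit 318 of all probes and 2 of the 7 had an unadjusted p under 0.05.

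**Figure D1:**
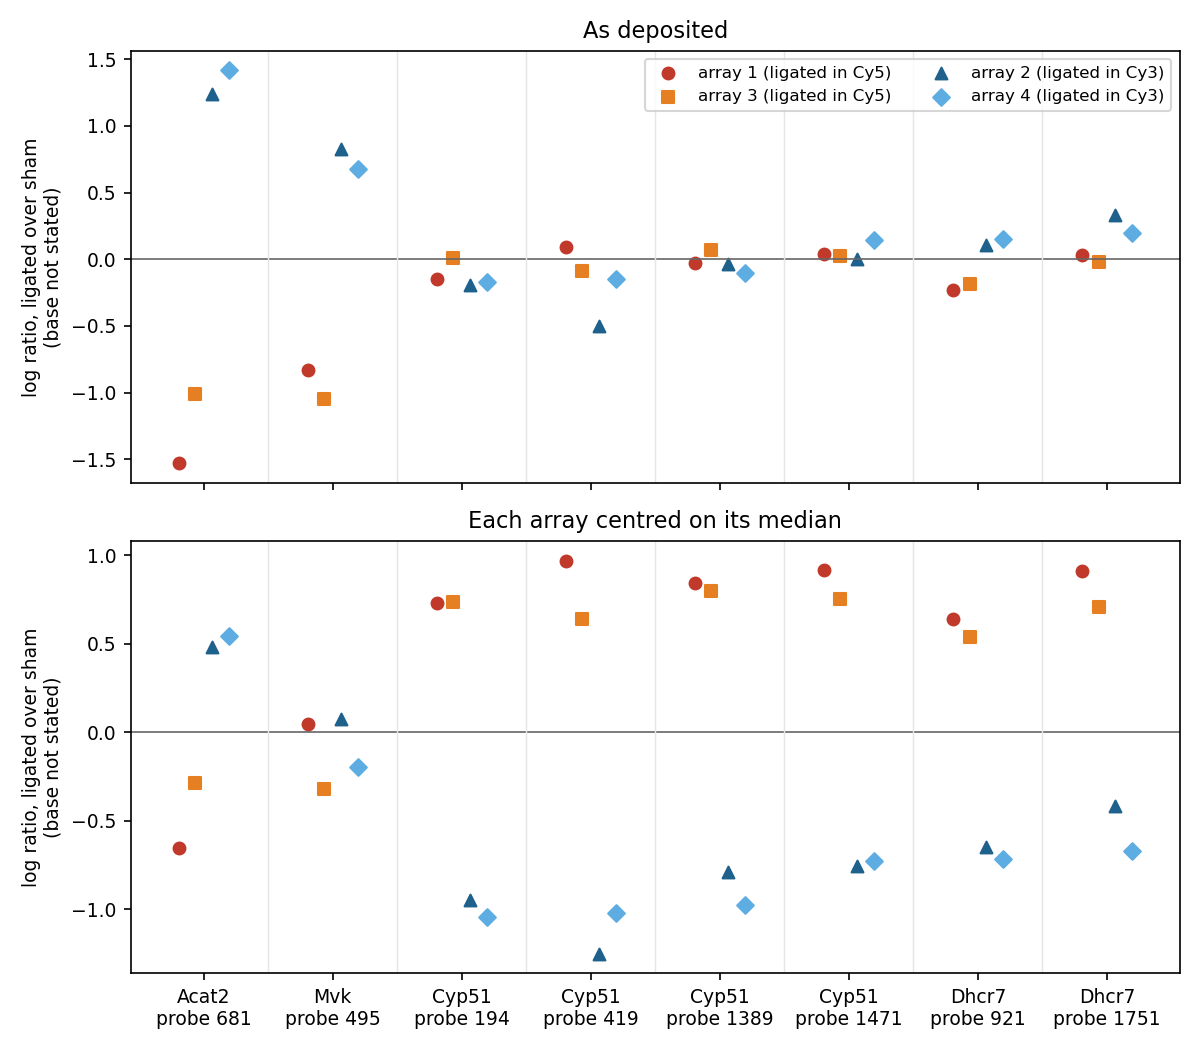
Log ratio of ligated over sham (base not stated) of the 8 probes on each of the 4 arrays, as deposited (top) and after each array was centred on its median (bottom); colour and shape give the array and the dye of the ligated sample. As deposited, the Acat2 and Mvk probes part by dye, while the Cyp51 and Dhcr7 probes lie near 0 on most arrays; after centring, the Cyp51 and Dhcr7 probes are above 0 on arrays 1 and 3 and below 0 on arrays 2 and 4.

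Acat2, at the head of the route, had deposited log ratios of -1.53, 1.24, -1.01 and 1.42 on arrays 1 to 4. The values parted completely by dye, low with the ligated sample in Cy5 and high with it in Cy3. Centred, they were -0.65, 0.48, -0.28 and 0.54, so that the dye effect stood at -0.49, the 13.7th percentile of all probes. The operation effect was 0.022 ± 0.085 (SE, n = 4 arrays; limma adjusted p = 0.991), with a 95% interval from -0.15 to 0.19. Arrays 1 and 3, which share a dye orientation, differed by 0.37, and arrays 2 and 4 by 0.062. The probe's sign changed with single arrays: its estimate was -0.070 without replicate 3 and 0.11 without replicate 1, neither past the threshold.

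Mvk had deposited log ratios of -0.83, 0.83, -1.05 and 0.67, again parted by dye and close in size to the array medians. Centred, its values were 0.045, 0.076, -0.32 and -0.20, which left a dye effect of only -0.038. The centred values did not split by dye: arrays 1 and 2 were just above 0 and arrays 3 and 4 below. The operation effect was -0.099 ± 0.085 (limma adjusted p = 0.799; 95% interval -0.27 to 0.071). Without replicate 1 the estimate was -0.19 and without replicate 3 it was -0.0080, and no array decided a call.

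Cyp51, the lanosterol demethylase, was the most densely covered of the 4 genes. Probe 194 had deposited values of -0.15, -0.20, 0.0079 and -0.17, probe 1389 had -0.031, -0.035, 0.067 and -0.10, and probe 1471 had 0.041, -0.0023, 0.024 and 0.15. These 3 probes stayed within 0.25 of 0 on every array. So did 1 Dhcr7 probe, 921, which makes 4 of 8, against 11.6% of all probes, a limit chosen after the values were seen. Probe 419 was the exception among the Cyp51 probes, with 0.094, -0.50, -0.089 and -0.15, its low value being that of array 2.

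Since the array medians lay far from 0, centring moved the Cyp51 values apart by dye. The centred values of the 4 probes lay between 0.64 and 0.97 on arrays 1 and 3 and between -1.25 and -0.73 on arrays 2 and 4. Their dye effects, 0.87, 0.97, 0.85 and 0.79 for probes 194, 419, 1389 and 1471, were between percentiles 81.0 and 94.1 of all probes. On the deposited scale the same contrast was 0.058, 0.16, 0.044 and -0.019, so the size of the dye effect here is that of the centring. The estimate of the operation effect hardly moved with centring, as the array medians of the 2 dye orientations nearly cancel. At probe 194 it was -0.132 on centred arrays and -0.127 as deposited. The SEs did change, from 0.084 to 0.085 for the 4 probes on centred arrays to 0.049 to 0.078 as deposited.

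The operation effects of Cyp51 were -0.13 ± 0.084 at probe 194, -0.17 ± 0.085 at probe 419, -0.030 ± 0.084 at probe 1389 and 0.048 ± 0.084 at probe 1471 (limma adjusted p = 0.566, 0.367, 0.991 and 0.979). The probes thus did not share a sign, and their intervals overlapped, from -0.33 to 0.0036 at the lowest and from -0.12 to 0.21 at the highest. Probe 419 lies in block 4, 1 of 16 equal runs of consecutive probe numbers, whose median operation effect was -0.14 and in which 11 probes were called lower and 0 higher. After a smooth curve of each array's values on the dye effect had been subtracted within each block, the estimate of probe 419 was 0.0081 ± 0.036 (limma adjusted p = 0.932). With the 4 probes averaged, Cyp51 had -0.070 ± 0.073 (95% interval -0.22 to 0.082; limma adjusted p = 0.837 over 958 genes).

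Dhcr7, the last enzyme of the route, had 2 probes. Probe 921 had deposited values of -0.23, 0.11, -0.19 and 0.15, and probe 1751 had 0.034, 0.33, -0.020 and 0.20. On both, arrays 2 and 4 were the higher ones, but probe 1751 lay above probe 921 on each array. The operation effect was -0.045 ± 0.084 at probe 921 (limma adjusted p = 0.979) and 0.13 ± 0.084 at probe 1751 (limma adjusted p = 0.567). Probe 1751 stood at the 95.7th percentile of all estimates, the furthest from the middle among the 8. Its 95% interval was -0.036 to 0.30 on centred arrays and 0.0034 to 0.27 as deposited, where its unadjusted p of 0.0463 came to a limma adjusted p of 0.542. Averaged over both probes, Dhcr7 had 0.043 ± 0.074 (limma adjusted p = 0.935).

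**Figure D2:**
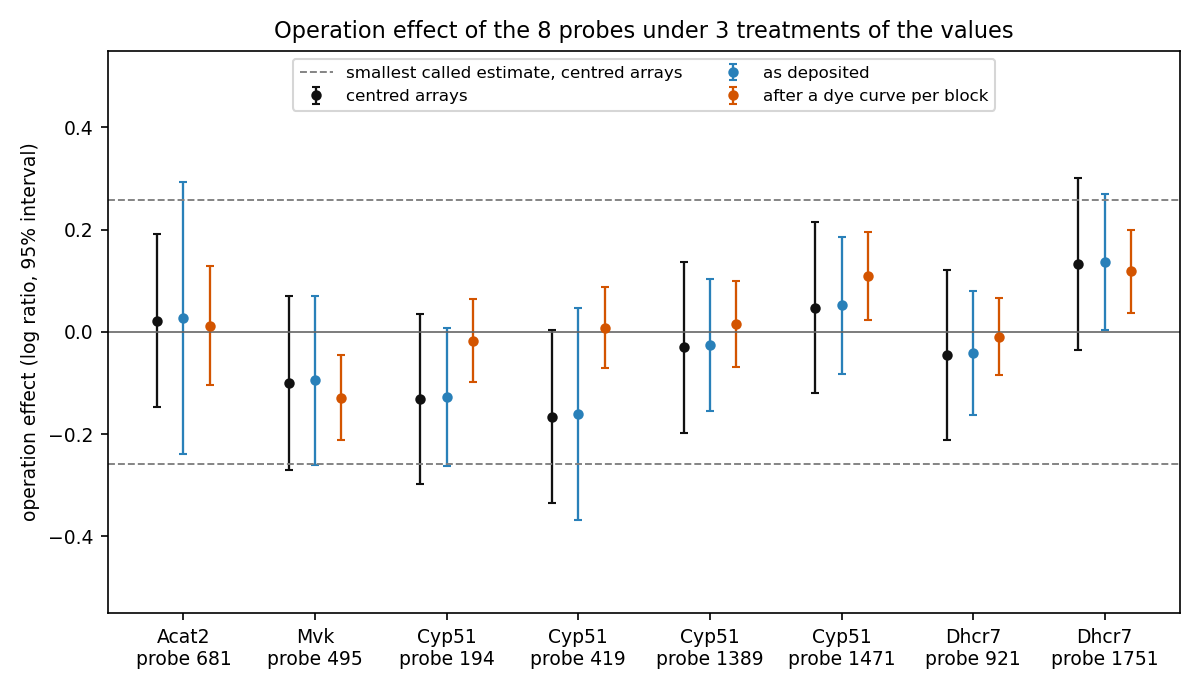
Operation effect (log ratio of ligated over sham) of each probe with its 95% interval from limma, on centred arrays (black), as deposited (blue) and after a dye curve per block (orange); dashed lines mark 0.26 above and below 0, the smallest estimate called on centred arrays. All black intervals include 0, and after the dye curve per block those of Mvk, Cyp51 probe 1471 and Dhcr7 probe 1751 do not, with adjusted p from 0.0702 to 0.129.

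Without centring 0 of the 8 probes passed and 1 had an unadjusted p under 0.05, with 0.155% of all probes called and 176 of 1936 at an unadjusted p under 0.05. After the dye curve per block 0 passed and 3 had an unadjusted p under 0.05, with 7.02% of all probes called and 20.7% at an unadjusted p under 0.05. These 3 were Mvk at -0.13 ± 0.038, Cyp51 probe 1471 at 0.11 ± 0.039 and Dhcr7 probe 1751 at 0.12 ± 0.037 (limma adjusted p = 0.0702, 0.129 and 0.0838). Their corrected values kept a sign on 4 of 4 arrays: Mvk had -0.078, -0.074, -0.18 and -0.19, Cyp51 probe 1471 had 0.14, 0.035, 0.072 and 0.19, and Dhcr7 probe 1751 had 0.17, 0.16, 0.064 and 0.079. The 3 were picked by their p in the same fit, and the curve takes out differences by dye, so the shared sign is no further evidence. How many of all probes kept a sign after this curve was not counted. The other 5 probes had estimates from -0.017 to 0.015 after that curve. The sizes of Mvk and Dhcr7 probe 1751 were close to 0.13, the smallest estimate called under that correction.

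**Figure D3:**
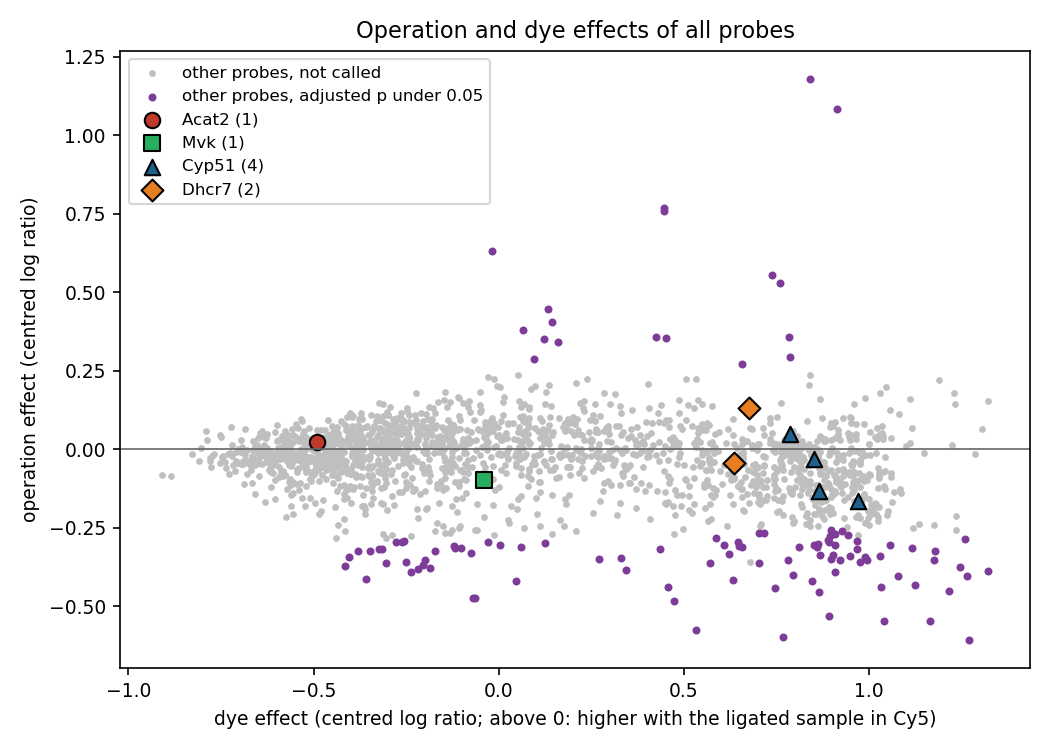
Operation effect against dye effect, both as centred log ratios, for all 1936 probes; grey points were not called, purple points had a limma adjusted p under 0.05, and large symbols are the probes of the 4 enzymes. The 8 probes lie between -0.17 and 0.13 on the vertical axis, inside the grey band, while on the horizontal axis they spread from -0.49 (Acat2) to 0.97 (Cyp51 probe 419).

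The enzymes differed from each other far more by dye than by operation. On centred arrays, dye effects ran from -0.49 for Acat2 over -0.038 for Mvk to 0.64 and 0.68 for the Dhcr7 probes and 0.79 to 0.97 for the Cyp51 probes, where the quartiles over all probes were -0.37 and 0.67. These sizes are relative to the array medians. On the deposited scale the same contrast was -1.30 for Acat2, -0.85 for Mvk and -0.17 and -0.13 for Dhcr7 probes 921 and 1751. For the Cyp51 probes it was -0.019 to 0.16. The spread left after the model, a residual SD with 2 degrees of freedom, was 0.048 for Cyp51 probe 194 and 0.062 for Dhcr7 probe 921, at the 6.97th and 12.0th percentile of all probes. It was 0.23 for Mvk, 0.20 for Cyp51 probe 419 and 0.19 for Acat2, at the 87.0th, 80.4th and 76.7th percentile, so these 3 were the least repeatable of the 8. The fitted SEs were nevertheless alike (0.084 to 0.085), since limma's prior of 76.2 degrees of freedom outweighs the 2 of a probe.

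Probes of the same gene were compared within each array, where centring drops out. Dhcr7 probe 1751 exceeded probe 921 by 0.27, 0.23, 0.17 and 0.046 on arrays 1 to 4, a mean of 0.18 ± 0.097 (SD, n = 4 arrays). Cyp51 probe 1471 exceeded probe 194 by 0.19, 0.19, 0.016 and 0.32, and probe 1389 exceeded probe 194 by 0.12, 0.16, 0.060 and 0.071. In the other 4 pairs of Cyp51 probes the sign varied between arrays, and the 3 that include probe 419 had SDs of 0.23 to 0.25. The same sign on 4 of 4 arrays was thus seen in 3 of 7 pairs, which share probes. Among all 699 same-gene pairs on the array it was seen in 4.01%, and in 11.1% of the 235 whose dye effects differed by no more than those of these pairs. A sign-flip permutation test on 4 arrays cannot give a two-sided p below 0.125, so the differences are given as a description.

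**Figure D4:**
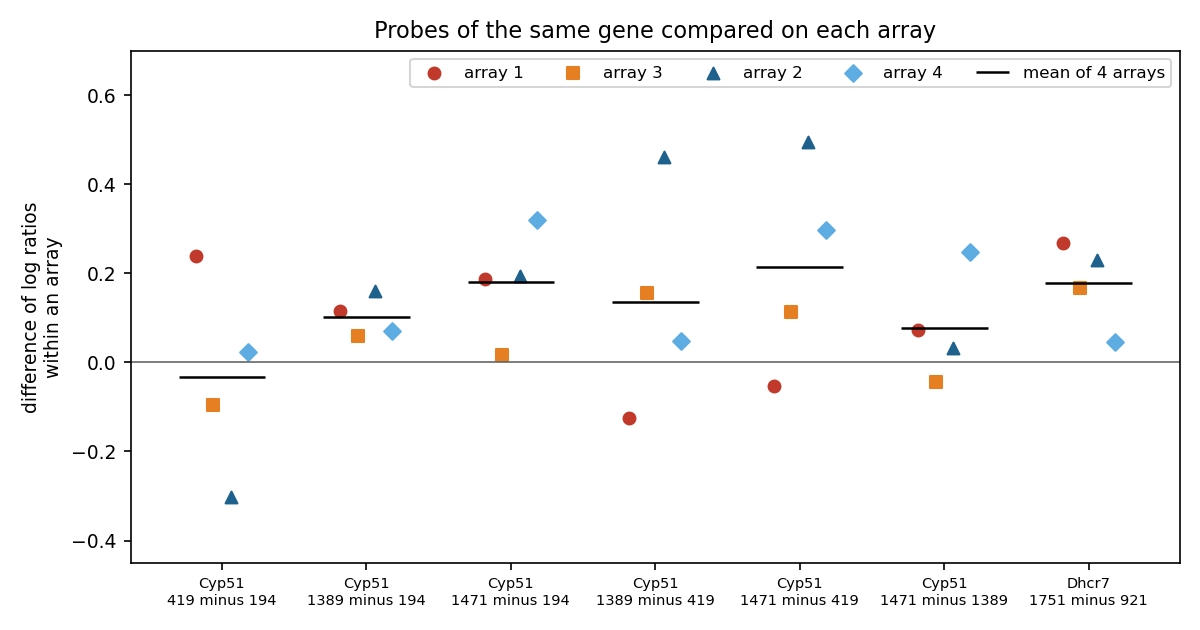
Difference of log ratios between probes of the same gene within each of the 4 arrays (symbols) and their mean (line), for the 6 pairs of Cyp51 probes and the pair of Dhcr7 probes. Dhcr7 probe 1751 lies above probe 921 on 4 of 4 arrays, and pairs that include Cyp51 probe 419 are spread most widely.

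Likeness of pattern was measured as the root mean square difference of centred values over the 4 arrays, a measure that the dye effect dominates. Nearest to Acat2 were Dmbt1 and Tspan8 (0.035 and 0.047), and nearest to Mvk were Vhl and Nfe2 (0.11 and 0.12), the largest distances among the nearest probes. The Cyp51 probes had different neighbours: Il2rb and Ptprn for probe 194 (0.036 and 0.056), Laptm4a and Cyp2d4 for probe 419 (0.063 and 0.066), Rapsn and Abcd3 for probe 1389 (0.021 and 0.029) and Notch3 and Gadd45a for probe 1471 (0.040 and 0.048). Dhcr7 probe 921 was nearest to Cdc42 and Por (0.051 and 0.059), and probe 1751 to Ramp1 and Cd47 (0.032 and 0.066). No neighbour was called, and no enzyme of the route was the neighbour of another by construction, as the 4 genes were left out of the search.

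The 4 promoters are of interest because the enzymes are known to share control by SREBP-2, which works with the CCAAT binding factor NF-Y and with Sp1 at GC boxes. The 250 bases before the start of each gene, taken from RefSeq on the GRCr8 assembly, were searched on both strands. The genes lie on chromosomes 1 (Acat2 and Dhcr7), 12 (Mvk) and 4 (Cyp51). The sterol element, searched as TCACNCCAC, was in none of the 4 windows and in 0.974% of all 33469 windows of that length. Its form with a leading A and with C at the open position was in none of the 4 and in 0.105%. Other forms of the element were not searched, so these counts do not show that the windows lack one. The E-box CACGTG was also in none of the 4 and in 5.59% of all windows. The GC box GGGCGG was in all 4, against 30.5% of all windows, at 2 sites each in Acat2, Mvk and Dhcr7 (the Dhcr7 sites sharing a base) and at 1 in Cyp51.

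CCAAT was in 34% of all windows and, of the 4 genes, only in that of Mvk, which held 5 copies; 0.179% of all windows held as many. The windows of Mvk (chr12:47819504-47819753, minus strand) and of Cyp51 (chr4:30991443-30991692, plus strand) are shown because they differ most in these letters. Both are written 5′ to 3′, and capitals mark GGGCGG and CCAAT on either strand (as CCGCCC and ATTGG on the other strand).
Mvk: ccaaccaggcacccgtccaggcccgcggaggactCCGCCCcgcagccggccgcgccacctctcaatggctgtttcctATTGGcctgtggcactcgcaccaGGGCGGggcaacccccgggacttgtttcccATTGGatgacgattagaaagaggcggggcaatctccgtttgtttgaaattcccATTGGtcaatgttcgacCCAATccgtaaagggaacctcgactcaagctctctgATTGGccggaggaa
Cyp51: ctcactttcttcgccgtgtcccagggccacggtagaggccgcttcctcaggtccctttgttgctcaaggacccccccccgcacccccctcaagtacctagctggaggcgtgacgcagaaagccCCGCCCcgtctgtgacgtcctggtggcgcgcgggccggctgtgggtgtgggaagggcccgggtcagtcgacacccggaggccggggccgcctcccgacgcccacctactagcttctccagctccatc
A match, or the lack of one, is a description of these letters and says nothing of binding, and none of the 4 genes was called, whichever letters it held.

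Other genes of sterol metabolism came from lists fixed for this work. Of 21 further enzymes of the synthesis route or its acetyl-CoA supply, 0 had a probe with a single symbol, so Acat2, Mvk, Cyp51 and Dhcr7 stand alone for the route here. Of 9 sterol sensing genes 1 was measured, the oxysterol receptor gene Nr1h2, at -0.10 ± 0.084 (limma adjusted p = 0.773). Of 19 genes of cholesterol uptake, esterification and export 3 were measured, at 1 probe each. Of these 1 fell: Scarb1, the receptor that takes up cholesterol from high density lipoprotein. Apob and Apoe, the protein parts of secreted lipoproteins, had -0.11 ± 0.084 and -0.013 ± 0.085 (limma adjusted p = 0.693 and 0.991).

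Scarb1 had deposited values of -0.61, -0.63, -1.02 and 0.34, and centred values of 0.27, -1.38, -0.29 and -0.53. Its operation effect was -0.48 ± 0.093 (limma adjusted p = 0.000188). The probe lies in block 3, in which 60 probes were called lower and 0 higher. Corrected by the dye curve of that block, it had -0.22 ± 0.063 and did not pass (limma adjusted p = 0.0702). Nor did it pass as deposited (limma adjusted p = 0.542) or without replicate 2 (-0.27, limma adjusted p = 0.0580) or replicate 3 (-0.34, limma adjusted p = 0.844).

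On the side of conversion to bile acids, 5 of 13 listed genes were measured by 9 probes, of which 2 rose (both Nr0b2, the repressor of bile acid synthesis) and 2 fell, probe 889 of Cyp7a1 and probe 1391 of Cyp8b1. Nr0b2 had 1.08 ± 0.084 and 1.18 ± 0.084 (limma adjusted p = 3.82e-18 and 8.11e-20). As deposited both Nr0b2 probes passed, each at a limma adjusted p of 0.0116. The Cyp7a1 and Cyp8b1 probes that fell had -0.31 ± 0.084 and -0.42 ± 0.085 (limma adjusted p = 0.0128 and 0.000416). Without replicate 3 neither passed (-0.28 and -0.34), and Cyp7a1 did not pass without replicate 1 (-0.34). As deposited neither passed (limma adjusted p = 0.151 for Cyp7a1 and 0.150 for Cyp8b1). After the dye curve per block both passed, at -0.27 ± 0.035 and -0.38 ± 0.039 (limma adjusted p = 0.000794 and 0.000149). The other probes of these genes were not called on centred arrays. They were 72 of Cyp7a1 at -0.15 ± 0.084 and 422 of Cyp8b1 at -0.21 ± 0.086 (limma adjusted p = 0.416 and 0.181). With the curve of its block subtracted, probe 72 was called lower too, at -0.21 ± 0.041 (limma adjusted p = 0.0111). Probe 422 was not, at -0.063 ± 0.036 (limma adjusted p = 0.365). Neither of them passed as deposited (limma adjusted p = 0.572 for probe 72 and 0.644 for probe 422). Cyp27a1, which oxidises the cholesterol side chain, had -0.012 ± 0.085 and -0.10 ± 0.084 at its 2 probes (limma adjusted p = 0.991 and 0.783). The median of the 9 probes was -0.11, beside -0.020 over all probes.

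Cell type markers were measured only as ratios, so the levels that would check the tissue label were not measured. Of 8 listed hepatocyte markers 4 genes were measured by 5 probes, with estimates from -0.24 to -0.042 and 0 called (1, Ttr, was called lower after the dye curve per block). Among markers of other cells, 1 probe of Col1a1, a collagen of stellate cells and fibroblasts, rose by 0.34 ± 0.084 (limma adjusted p = 0.00526). It also passed after the dye curve per block (0.36 ± 0.061, limma adjusted p = 0.00474) and without replicate 2 or 4 (0.31 and 0.37). It did not pass as deposited (limma adjusted p = 0.300) or without replicates 1 and 3 (limma adjusted p = 0.218 and 0.999). The other Col1a1 probe, Vim, Kdr of endothelium and 2 probes of the neutrophil gene S100a9 were not called (-0.12 to 0.15). Listed cholangiocyte, macrophage and blood markers had 0 probes. The part of these markers in the values of the 4 enzymes was not tested.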

How the data were processed

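Liver RNA was compared on 4 two-colour cDNA arrays. The deposited table holds the authors' log ratios, 1 per probe and array, with 0 missing values; their base, scanner, background correction and normalization: not given in the sources used here. Spot intensities were not used here. Symbols came from the platform annotation, updated by gene ID through RefSeq (GRCr8): 1432 of the 1936 probes had 1 symbol, 19 several and 485 none. Of the 1432, 1429 matched a current gene ID. The members, lists and tests were chosen with earlier results of these data known. All probes of the 4 genes were named, with measured genes of the lists (those called, and all of synthesis and sensing) and the 2 nearest single-symbol genes per probe. Arrays were centred on their medians; lmFit and eBayes (limma 3.58.1, run in R 4.3.3) fitted operation and dye terms, with a threshold of 0.05. The script was tested on simulated data. The dye curve is a loess (span 0.75, degree 1) of each centred array on the dye effect, over all probes or within 16 equal blocks of consecutive probe numbers. Other settings were no centring, equal scaling, reading values as Cy5 over Cy3, leaving out the dye term, a robust prior, no moderation, averaged probes, no blocks 3 and 4, and leaving out each array. The number of arrays limits the precision.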

Additional observations from a re-analysis of the deposited data

How the results depend on the processing

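In every setting but that of reading values as Cy5 over Cy3 (13 settings, 12 for Cyp51 probe 419, which has no value without blocks 3 and 4), 0 of the 8 probes, or of the 4 averaged genes, passed in limma or without moderation. The lowest adjusted p of any probe there was 0.0702. Reading all values as Cy5 over Cy3, with arrays 2 and 4 turned, gives the dye contrast of centred values the place of the operation: 7 of the 8 passed, with -0.49 for Acat2, 0.87, 0.97, 0.85 and 0.79 for Cyp51 probes 194, 419, 1389 and 1471, and 0.64 and 0.68 for Dhcr7 probes 921 and 1751. Over all probes that reading called 1599, beside 111 in the setting used. The count was 3 without centring (3 higher, 0 lower), 62 with equal scaling, 7 after a dye curve per array (7 higher, 0 lower), 67 with a robust prior, 40 of 958 averaged genes, and 0 without a dye term or without moderation (5 and 94 at unadjusted p under 0.05). After the dye curve per block 136 were called (71 higher, 65 lower). Leaving out each array gave 12 to 241, the lowest without replicate 3 and the highest without replicate 4; these fits share 1 SE over all probes. Small estimates changed sign: Cyp51 probe 1389 had 0.038 after the dye curve per array and 0.015 after that per block, where Cyp51 probe 419 had 0.0081. Acat2 had -0.0054 without blocks 3 and 4, and averaging gave -0.070 for Cyp51 (probe 1471 alone was above 0) and 0.043 for Dhcr7 (probe 921 alone was below). Without single replicates Acat2 ran from -0.070 to 0.11 and Cyp51 probe 1389 from -0.077 to 0.017. The cause of these changes was not tested. No paired analysis was possible because the arrays form 1 group and each already sets both operations side by side.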
